A study of Bos taurus with 32 samples.

Results

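CPXM2 (carboxypeptidase X, M14 family member 2) was examined in bovine endometrium together with every other carboxypeptidase that the array named as such. CPXM2 and CPA1 were named in advance by their probes, and CPXM2 was chosen by its level in repeat breeder (RB) against non-RB cows on these same arrays. The other members were chosen by the word carboxypeptidase in the description of the probe. The rule gave 9 probes of 15208, 1 for each of CPXM2, CPXM1, CPE, CPA1, CPA5, CPB2, CPO, PRCP and SCPEP1. CPXM1 entered only when letter case was ignored, since its description begins with a capital, and 8 probes remained with letter case kept. The 7 members without CPXM2 and CPA1 are called the relatives here.

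Carboxypeptidases remove amino acids one at a time from the carboxyl end of a peptide or protein. Most members here belong to the M14 family of zinc enzymes, in which the CPA and CPB enzymes digest or regulate peptides and CPE itself trims hormone precursors inside secretory cells. CPXM1 and CPXM2 belong to the CPE branch by sequence, but they are secreted proteins with a discoidin domain and are thought to lack catalytic activity. PRCP and SCPEP1 are unrelated serine carboxypeptidases of the lysosome.

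The endometrium came from non-lactating Japanese Black cows killed at Day 15 of their cycle, with 4 RB and 4 non-RB cows. RB cows had not conceived after repeated insemination, and non-RB cows had conceived, had the pregnancy ended with a prostaglandin and had then returned to normal cycles. That earlier pregnancy and its ending therefore belonged to the non-RB group alone. From each cow, caruncular tissue (CAR, the sites where a placenta attaches) and intercaruncular tissue (ICAR, the gland-rich tissue between them) were taken from the uterine horn ipsilateral to the corpus luteum and from the contralateral horn, which gave 32 single-colour arrays. The age of each group was not given in the labels, and arrays of a group that carry the same replicate number are treated as those of a single cow.

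The level of a probe is given throughout as the log2 of its processed intensity minus that of the 75th percentile on the same array, so a level of 0 lies at that percentile and a difference of 1 is a doubling. Levels of different probes cannot be compared with each other. The 75th percentile lay between 1165 and 4857 intensity units, and 74.3% to 85.85% of the probes on an array were well above background. The arrays were on 8 slides and in 4 scan sessions, and slide 2 held all arrays of RB replicates 2 and 3 and of no other cow. On slide 1, which held the CAR contralateral array of non-RB replicate 2 and the ICAR contralateral array of non-RB replicate 1, the 100 GAPDH spots spread with an SD of 0.87 to 1.32, against at most 0.54 on any other array. Markers of stroma such as DCN and of epithelium such as EPCAM were well above background on all 32 arrays. In whole tissue, fewer cells of a type and less RNA per cell cannot be told apart.

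The probes were 60 bases long, and the first 30 bases, 5′ to 3′ as the files give them, are shown for CPXM2, its nearest relative by family, and the pair of CPA genes that neighbour each other in the genome.
CPXM2: acagttcgtctcgcttTTTATTaatgttgc
CPXM1: acacaccactgtgggaagcagaagatgaag
CPA1: agcactcttttcctcctcctcttcagccct
CPA5: caagttatggatcccatccccatccctgcc
The capitals in the CPXM2 probe mark TTTATT, the reverse complement of the polyadenylation signal AATAAA. Within the first 30 bases, CPXM2 was the only member to hold TTTATT, which 1.78% of all probes held, and no member held AATAAA, which 1.43% held. The longest run of bases that the whole probe of any other member shared with the CPXM2 probe was 8, for CPE. The gene of CPXM2 lies on chromosome 26 and that of CPXM1 on chromosome 13, while CPA1 and CPA5 lie side by side on chromosome 4, all in the RefSeq annotation of ARS-UCD2.0. The array names the CPXM2 probe by an expressed sequence tag with an unknown description, so its assignment rests on the gene name that the file attaches to it, and its strand relative to the transcript was not tested. Apart from the array, the paper measured CPXM2 by qPCR in the same RNA, for CAR ipsilateral and for the whole uterus. CPXM2 is not among the genes that it names as exceptions to a match between qPCR and array.

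CPXM2 was well above background on all 32 arrays and its level was lower in RB than in non-RB cows in all 4 compartments. Since CPXM2 was chosen by this contrast, its values are a description with no test. In CAR of the ipsilateral horn the level in non-RB cows was 1.16, -0.96, -1.22 and -0.55 in replicates 1 to 4. In RB cows it was -2.40, -1.62, -4.40 and -2.03. Every RB value lay below every non-RB value there, non-RB replicate 1 stood highest and RB replicate 3 lowest. The means were -0.39 ± 1.07 (SD, n = 4) and -2.61 ± 1.23 (SD, n = 4), a difference of -2.22 or 4.66-fold.

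In ICAR of the ipsilateral horn non-RB cows had levels of -1.65, -0.53, -1.02 and -1.30. RB cows had levels of -2.22, -1.84, -3.29 and -2.02. The groups again did not overlap, but the highest RB and the lowest non-RB value lay close together. The means were -1.12 ± 0.47 and -2.34 ± 0.65 (SD, n = 4 each), a difference of -1.22 or 2.33-fold.

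In CAR of the contralateral horn non-RB cows had levels of 1.17, -1.39, -0.94 and -1.08. RB cows had levels of -2.25, -1.14, -3.39 and -1.64. The groups overlapped, because RB replicate 2 lay above non-RB replicate 2, the array on slide 1. The means were -0.56 ± 1.17 and -2.11 ± 0.97 (SD, n = 4 each), a difference of -1.55.

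In ICAR of the contralateral horn non-RB cows had levels of -1.36, 0.35, -1.07 and -1.28. RB cows had levels of -0.89, -2.05, -4.59 and -2.34. The groups overlapped through RB replicate 1, which was above 3 of the 4 non-RB cows there. The means were -0.84 ± 0.80 and -2.47 ± 1.55 (SD, n = 4 each), a difference of -1.63.

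**Figure D1:**
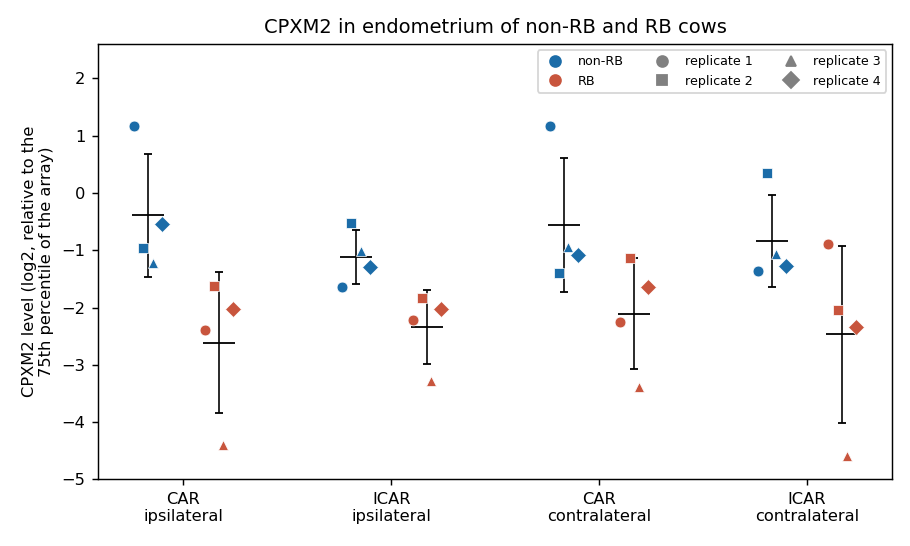
CPXM2 level (log2, 75th percentile of the array set to 0) in each compartment, with 1 point per array, blue for non-RB and red for RB cows, the marker shape giving the replicate number, and bars showing the mean and SD of 4 cows. RB replicate 3 is lowest in all 4 compartments, from -4.59 to -3.29, and non-RB replicate 1 is high in CAR of both horns (1.16 and 1.17) but not in ICAR.

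Ordered by mean level, the 8 groups ran from non-RB CAR ipsilateral at -0.39 through non-RB CAR contralateral at -0.56, non-RB ICAR contralateral at -0.84, non-RB ICAR ipsilateral at -1.12, RB CAR contralateral at -2.11, RB ICAR ipsilateral at -2.34 and RB ICAR contralateral at -2.47 to RB CAR ipsilateral at -2.61. All 4 non-RB groups stood above all 4 RB groups. Within the non-RB groups and within the RB groups, neighbours in this order differed by less than their SDs. The largest step, between non-RB ICAR ipsilateral and RB CAR contralateral, was close to the SD of the latter (0.97).

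Averaged over its 4 arrays, each non-RB cow had a CPXM2 level of -0.17, -0.63, -1.06 and -1.05 for replicates 1 to 4. The RB cows had -1.94, -1.66, -3.92 and -2.01. The cow means did not overlap, and they differed by -1.65 (3.15-fold), with an SD of 0.42 in non-RB and of 1.04 in RB cows. RB replicate 3 stood farther below the other RB cows than those stood below the non-RB cows. Without RB replicate 3 the difference was -1.62 in CAR ipsilateral, -0.91 in ICAR ipsilateral, -1.12 in CAR contralateral and -0.92 in ICAR contralateral. Without non-RB replicate 1 it was -1.70 in CAR ipsilateral and -0.97 in CAR contralateral.

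Within a single scan session that held both groups, RB arrays were also lower in each of the 9 cases, with differences from -3.42 to -0.63, but each case rested on 1 to 3 arrays a group. With the slide as a block the difference was -2.04, -1.35, -2.06 and -1.25 in CAR ipsilateral, ICAR ipsilateral, CAR contralateral and ICAR contralateral. With the scan session as a block it was -2.49, -1.11, -1.83 and -1.20 in the same order. In CAR ipsilateral no slide held both groups, so slide and group cannot be told apart there. The slide entered that fit only as a correlation between arrays, and the -2.04 is not a difference within slides.

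CPXM2 was among the most variable probes on the array. Its SD over the 32 arrays was 1.27, above that of 97.0% of the 12919 probes measured over all arrays, whose median SD was 0.50. That SD includes the difference between RB and non-RB cows by which CPXM2 was chosen, so its high rank follows in part from the choice. The SDs of the other members ranged from 0.38 for CPA5 to 0.59 for CPXM1, which placed them between 28.1% and 64.4% of those probes. For CPXM2 the SD among the arrays of the same cow was 0.73, and its rank among all probes was not determined.

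CPXM1, the closest relative of CPXM2, overlapped between RB and non-RB cows in all 4 compartments. In CAR of the ipsilateral horn the CPXM1 level was -3.93, -3.43, -4.63 and -3.82 in non-RB cows and -3.51, -3.74, -4.09 and -3.94 in RB cows. In ICAR of that horn it was -4.67, -2.32, -3.99 and -3.94 in non-RB cows and -4.50, -3.81, -4.84 and -4.10 in RB cows. The RB values lay inside the non-RB range in CAR, and in ICAR the groups overlapped with non-RB replicate 2 far above the rest.

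In CAR of the contralateral horn the CPXM1 level was -3.58, -4.23, -4.96 and -3.77 in non-RB and -3.41, -4.24, -5.03 and -3.53 in RB cows. In ICAR of that horn it was -3.98, -3.28, -5.05 and -4.73 in non-RB and -3.88, -4.32, -4.00 and -4.70 in RB cows. The groups overlapped widely in both. In ICAR contralateral all 4 RB cows lay within the non-RB range. For the whole uterus, over the mean of the 4 arrays of each cow, CPXM1 differed by -0.08 between RB and non-RB cows (95% interval -0.71 to 0.55; limma, adjusted p = 1).

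CPE, the enzyme that trims basic residues from peptide hormone precursors, also overlapped between the groups in every compartment. Its level in CAR ipsilateral was -1.29, -1.37, -0.91 and -1.65 in non-RB and -1.82, -0.83, -0.75 and -0.28 in RB cows. RB replicate 1 was the lowest there and the other RB cows stood above the non-RB mean. The difference was 0.39 (95% interval -0.38 to 1.16, limma, adjusted p = 1). Without RB replicate 1 it was 0.69, which passed an unadjusted p of 0.05 but not the adjusted one (adjusted p = 0.982).

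In ICAR ipsilateral the CPE level ranged from -1.68 to -0.11 in non-RB and from -1.33 to -0.80 in RB cows. In CAR contralateral it ranged from -2.05 to -0.89 in non-RB and from -1.63 to -0.48 in RB cows, and in ICAR contralateral from -1.93 to -0.25 and from -1.80 to -0.80. The differences were 0.02, 0.42 and -0.16, each smaller than the larger SD of the groups compared. Over cow means CPE differed by 0.17 (95% interval -0.27 to 0.61, adjusted p = 1).

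CPA1, a digestive carboxypeptidase best known from the exocrine pancreas, was well above background on all 32 arrays. It was named in the rule by its probe, so its values carry no test. Its RB minus non-RB difference was -0.18 in CAR ipsilateral, -0.38 in ICAR ipsilateral, 0.34 in CAR contralateral and 0.61 in ICAR contralateral. The groups overlapped in all 4 compartments. In ICAR contralateral the non-RB levels were -5.29, -3.25, -3.55 and -3.56 and the RB levels -3.15, -3.55, -3.23 and -3.29, so that the difference there rested on non-RB replicate 1, an array of slide 1. The mean over cows was -3.33 ± 0.36 in non-RB and -3.23 ± 0.34 in RB cows (SD, n = 4 each).

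**Figure D2:**
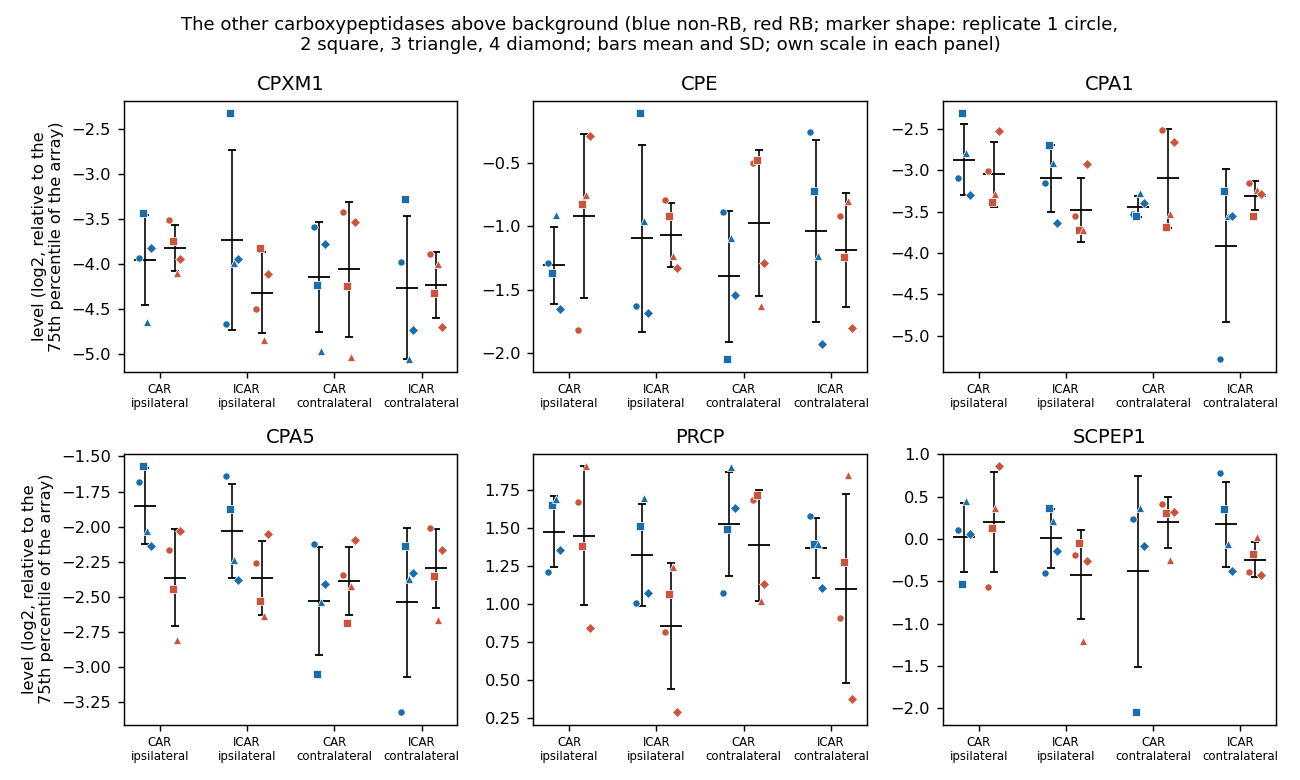
Level (log2, 75th percentile of the array set to 0) of the 6 other members that were well above background, each panel on its own scale, with 1 point per array, blue for non-RB and red for RB cows, and bars for the mean and SD of 4 cows. The groups overlap in all 24 of these pairs, and isolated low points such as CPA1 at -5.29 and SCPEP1 at -2.05 are the arrays of slide 1.

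Of the 7 relatives, 5 (CPXM1, CPE, CPA5, PRCP and SCPEP1) passed the filter for signal. CPO, a carboxypeptidase of the intestinal surface, was not well above background on any of the 32 arrays, and CPB2, the plasma enzyme that inhibits fibrinolysis, on 1 of 32, in CAR contralateral of RB replicate 4. For these a level cannot be given and no fold was computed. CPZ, CPM and CPN1, other members of the CPE branch, were not analysed here.

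None of the 5 tested relatives passed an adjusted p of 0.05 between RB and non-RB cows in any compartment or over the whole uterus by limma. The share of all probes that passed was also 0% in each, so the adjusted test separates nothing here. At an unadjusted p under 0.05, 0 of 5 relatives passed in each of these comparisons. The share of all probes passing at that level was 3.41% in CAR ipsilateral, 3.69% in ICAR ipsilateral, 1.74% in CAR contralateral, 1.6% in ICAR contralateral and 2.21% over the whole uterus. CPA5 in CAR ipsilateral came nearest to it, with the smallest unadjusted p of any relative in these comparisons.

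The range of the differences was -0.51 to 0.39 in CAR ipsilateral and -0.58 to 0.02 in ICAR ipsilateral. It was -0.14 to 0.58 in CAR contralateral and -0.42 to 0.24 in ICAR contralateral, where 1 non-RB array of each compartment lay on slide 1. In ICAR ipsilateral 4 of the 5 relatives were lower in RB cows, with a median of -0.43 against -0.03 for all 12889 probes tested. In CAR contralateral 4 of 5 were higher, with a median of 0.14 against 0.00 for all probes. Without the slide 1 array, 3 of 5 were higher there, the median was 0.02 and the range -0.15 to 0.20, with SCPEP1 at 0.02 in place of 0.58 and CPA5 at -0.03 in place of 0.14. In ICAR contralateral without its slide 1 array the range was -0.22 to 0.13, and CPA5 stood at -0.02 in place of 0.24. PRCP was lower in RB cows in all 4 compartments, with differences from -0.47 to -0.03, and over all arrays each of the other 4 relatives changed sign between compartments.

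Over cow means the lower 95% bounds of the relatives lay between -0.71 and -0.27 and the upper bounds between 0.26 and 0.61. A difference as low as the -1.65 measured for CPXM2 lay outside all 5 of these intervals, though the CPXM2 value was chosen for its size. For none of the relatives did the RB values lie all on one side of the non-RB values in a compartment. The share of all probes with no overlap was 1.97% in CAR ipsilateral, 2.23% in ICAR ipsilateral, 1.37% in CAR contralateral and 1.48% in ICAR contralateral.

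**Figure D3:**
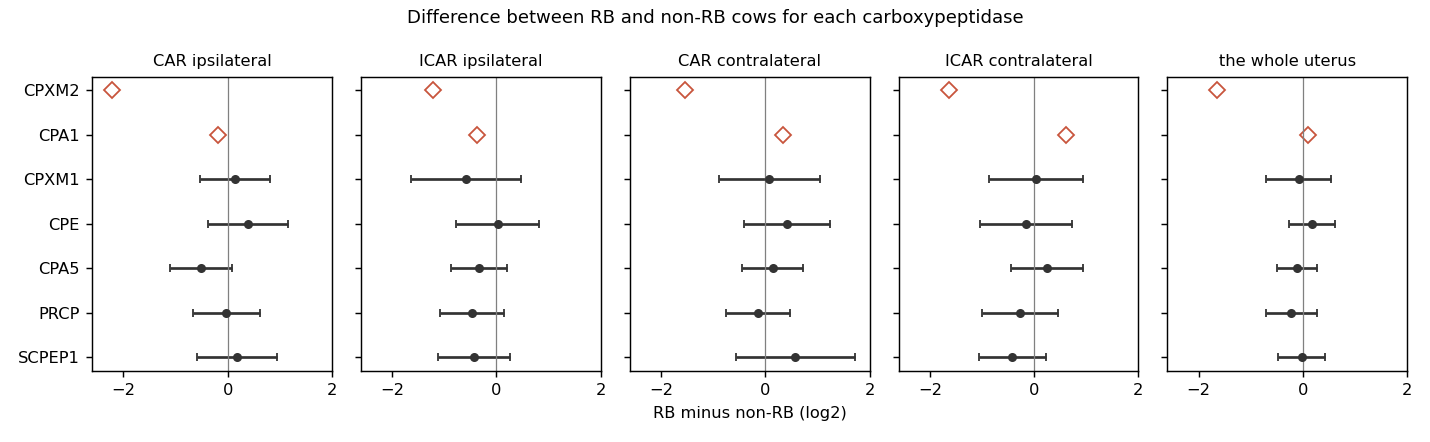
RB minus non-RB difference (log2) of each member above background in the 4 compartments and over cow means. Open diamonds are CPXM2 and CPA1, shown without error because they were named in the rule, and filled points are the relatives with their 95% intervals from limma. CPXM2 lies between -2.22 and -1.22 while every relative's interval spans 0.

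CPA5, an enzyme of the CPA branch whose gene lies beside that of CPA1, was singled out after its values were seen, since it had the smallest p in the ipsilateral CAR. Its level there was -1.68, -1.57, -2.03 and -2.14 in non-RB and -2.17, -2.45, -2.81 and -2.03 in RB cows. Of the RB cows only replicate 4 reached into the non-RB range. The difference was -0.51 (95% interval -1.11 to 0.09). In CAR and ICAR of the contralateral horn it was 0.14 and 0.24, the opposite sign, where the lowest non-RB values of -3.05 and -3.32 were those of slide 1.

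Relatives that the array does not describe by the word carboxypeptidase were taken from a list of family names. AEBP1, a secreted member of the CPE branch with a discoidin domain like CPXM2, had levels from 1.67 to 3.94. In CAR ipsilateral its level was 2.34, 2.43, 3.87 and 3.46 in non-RB and 3.50, 2.87, 3.32 and 3.25 in RB cows, so the groups overlapped. Over cow means it differed by -0.04 (95% interval -0.67 to 0.58, limma, adjusted p = 1). CPD, the membrane enzyme of the same branch, differed by 0.21 over cow means (95% interval -0.26 to 0.69, adjusted p = 1). In ICAR ipsilateral CPD was 0.28, 0.28, 0.48 and 0.56 in non-RB and 0.50, 0.81, 0.82 and 0.86 in RB cows, the RB cows higher with 1 overlap (difference 0.35, adjusted p = 0.863).

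Whether the members differed between CAR and ICAR was asked over all 32 arrays. CPXM2 was 0.28 higher in CAR on average, but the single cows went in opposite directions. The difference within a cow was 2.67, -1.09, -0.04 and 0.47 in non-RB replicates 1 to 4 and -0.77, 0.56, 0.05 and 0.34 in the RB replicates. Non-RB replicate 1 was much higher in CAR and non-RB replicate 2 higher in ICAR, each in both horns, and 5 of the 8 cows had the higher level in CAR. CPA1 was higher in CAR in 8 of 8 cows, by 0.33 ± 0.31 (SD, n = 8), which is given as a description.

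Among the 5 relatives, 0 passed an adjusted p of 0.05 for CAR against ICAR by limma, where 1.35% of all 12919 probes passed. That fit had no term for the cow, and with the cow as a block 8.41% of all probes passed the adjusted p and again 0 of 5 relatives. Without the arrays of slide 1 none of the probes passed it. At an unadjusted p under 0.05, 1 of 5 passed in the fit with no cow term, where 16.2% of all probes did. This was PRCP, a lysosomal enzyme that cleaves angiotensin and other peptides after proline, which was 0.30 higher in CAR (95% interval 0.02 to 0.57, adjusted p = 0.254, or 0.0726 with the cow as a block). It was higher in CAR in 6 of 8 cows, from 0.12 to 0.81, the exceptions being RB replicate 3 at -0.09 and non-RB replicate 1 at -0.15. The other differences lay between -0.05 for CPE and 0.14 for CPXM1.

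The difference of CPXM1 between CAR and ICAR had the same sign as that of CPXM2 in 6 of 8 cows. It was 0.56, -1.03, -0.28 and 0.54 in the non-RB replicates and 0.73, 0.08, -0.14 and 0.66 in the RB replicates. Non-RB replicate 2 was thus higher in ICAR for both genes. For CPA5 the sign was shared in 6 of 8 cows, and for PRCP in 3 of 8.

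**Figure D4:**
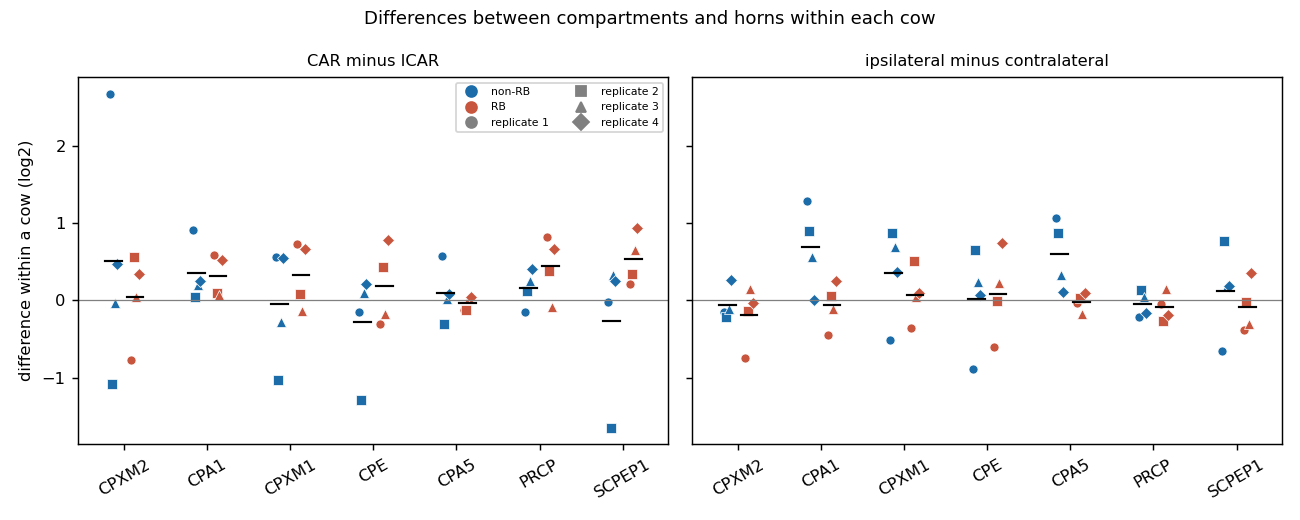
Difference within each cow (log2) between CAR and ICAR (left, mean of both horns) and between the ipsilateral and contralateral horn (right, mean of CAR and ICAR), for each member above background, with blue for non-RB and red for RB cows, the marker shape giving the replicate number and black bars the mean of 4 cows. CPXM2 spans -1.09 to 2.67 between CAR and ICAR and -0.74 to 0.26 between horns, where opposite differences of CAR and ICAR in the same cow cancel in part.

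Averaged over CAR and ICAR, the ipsilateral minus contralateral difference of CPXM2 was -0.15, -0.22, -0.11 and 0.26 in non-RB and -0.74, -0.14, 0.15 and -0.03 in RB cows. Within CAR it was -0.01, 0.43, -0.28 and 0.53 in non-RB and -0.15, -0.48, -1.01 and -0.39 in RB cows. Within ICAR it was -0.29, -0.87, 0.05 and -0.02 in non-RB and -1.33, 0.21, 1.30 and 0.32 in RB cows. The means over both tissues were small partly because the signs opposed each other. In RB replicate 3 the level was lower ipsilaterally in CAR and higher ipsilaterally in ICAR. In CAR all 4 RB cows were lower in the ipsilateral horn, and in ICAR 3 of the 4 were higher there.

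Of the relatives, 0 of 5 passed an adjusted p of 0.05 for the horn, as did 0% of all probes. That fit had no term for the cow, and with the cow as a block again 0 of 5 relatives passed the adjusted p. At an unadjusted p under 0.05, 1 of 5 passed in the fit with no cow term, where 1.36% of all probes did. This was CPA5, at 0.28 higher in the ipsilateral horn (95% interval 0.02 to 0.55, adjusted p = 1). Without the arrays of slide 1, an alternative added after the data were seen, it was 0.16 and did not pass that level (adjusted p = 0.999). The difference of CPA5 was 1.06, 0.87, 0.33 and 0.11 in the non-RB cows and between -0.18 and 0.09 in the RB cows. It was above 0 in 6 of 8 cows, with a mean of 0.28 ± 0.45 (SD, n = 8).

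CPA1 showed the same arrangement between horns, at 1.29, 0.90, 0.57 and 0.01 in non-RB and between -0.45 and 0.25 in RB cows. Its mean was 0.69 ± 0.54 in non-RB and -0.06 ± 0.30 in RB cows (SD, n = 4 each), and the highest values were again those of the cows with an array on slide 1. The part of that slide in these differences was not tested beyond leaving it out.

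Whether RB and non-RB cows differed more in CAR than in ICAR was tested on the CAR minus ICAR difference of each cow. By limma 0 of 5 relatives passed an adjusted p of 0.05, as did 0% of all probes, and 0 of 5 an unadjusted p of 0.05, where 0.882% of all probes did. SCPEP1, a serine carboxypeptidase, had the largest such difference of the relatives, at 0.80 (95% interval -0.14 to 1.75, adjusted p = 1). It was higher in CAR than in ICAR in all 4 RB cows, from 0.22 to 0.93, and ranged from -1.65 to 0.33 in non-RB cows. The lowest value was that of non-RB replicate 2, whose CAR contralateral array lay on slide 1 with a SCPEP1 level of -2.05. For CPXM2 the RB effect was 0.46 lower in CAR than in ICAR.

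Likeness to CPXM2 was described by Pearson's r of the level over the 32 arrays, which share cows, slides and horns, so no p is given. Among the members, CPA5 was the most like CPXM2 (r = 0.40), followed by CPXM1 (r = 0.31), SCPEP1 (r = 0.16), CPA1 (r = 0.04), CPE (r = 0.03) and PRCP (r = -0.06). Over the 12383 other probes with a value on every array the median r was -0.02, and the 5th and 95th percentiles were -0.45 and 0.43. No member lay outside that range. Of the deviations from the mean of each of the 8 groups, which leave out the RB contrast, r was 0.51 for CPA5, 0.43 for CPXM1 and -0.42 for PRCP. The range over all probes was not determined for these deviations, so how common such values are is not known.

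These values leaned on single cows. Without RB replicate 3, r with CPXM2 was highest for CPXM1, at 0.25. Without the arrays of slide 1, r for CPA5 was 0.55 and for CPXM1 0.32, with the range over all probes not determined for that set. Of the pairs of members without CPXM2, the most alike were CPA1 and CPA5 (r = 0.72) and CPE and SCPEP1 (r = 0.70), or 0.61 and 0.64 without slide 1. The remaining pairs without CPXM2 ran from r = -0.34 for CPA5 and PRCP to r = 0.40 for CPE and CPXM1.

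The probes with a gene name that were most like CPXM2 were NMRAL1 (r = 0.82), an NADPH sensor, WDR1 (r = 0.72) and COTL1 (r = 0.71), which act on actin filaments, KCNIP4 (r = 0.71), a potassium channel subunit, and ADI1 (r = 0.70), an enzyme of methionine salvage. NMRAL1 had the highest r of all 12383 probes, and its r of deviations from the group means was 0.87. Its level was 2.52, 1.72, 1.44 and 1.91 in non-RB CAR ipsilateral and 1.69, 1.57, 0.84 and 1.84 in RB CAR ipsilateral. As for CPXM2, non-RB replicate 1 stood highest and RB replicate 3 lowest. Over cow means NMRAL1 was 0.30 lower in RB cows, and without RB replicate 3 its r with CPXM2 was 0.66. Without that cow r was 0.53 for WDR1, 0.68 for COTL1, 0.62 for KCNIP4 and 0.43 for ADI1.

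**Figure D5:**
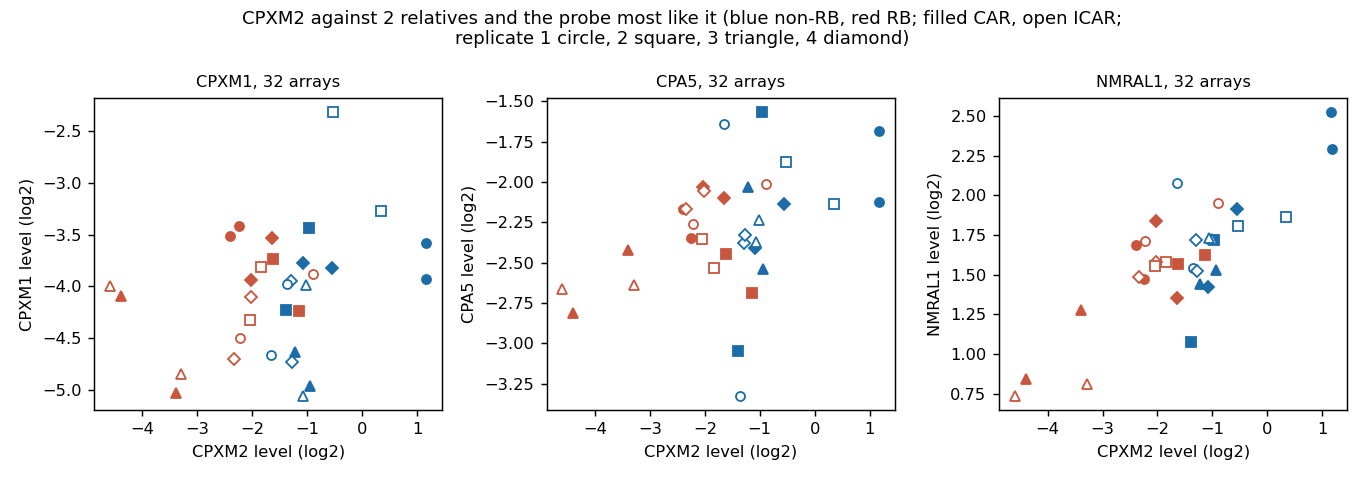
Level (log2) of CPXM1, CPA5 and NMRAL1 against that of CPXM2 on the 32 arrays, blue for non-RB and red for RB cows, filled for CAR and open for ICAR, with the marker shape giving the replicate number. NMRAL1 follows CPXM2 from the 4 low arrays of RB replicate 3 to the 2 high CAR arrays of non-RB replicate 1 (r = 0.82), whereas CPXM1 (r = 0.31) and CPA5 (r = 0.40) scatter.

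The least like CPXM2 were PRSS2 (r = -0.76), the digestive protease trypsin 2, PDP1 (r = -0.75), a phosphatase that activates pyruvate dehydrogenase, and MTG1 (r = -0.73), a mitochondrial GTPase. PRSS2 ranged from -9.60 to -3.95 in non-RB cows and from -6.71 to 3.61 in RB cows. RB replicate 3, the cow with the lowest CPXM2, had PRSS2 levels of 3.12, 3.53, 3.61 and 3.20 in its 4 compartments, and no other array exceeded -2.25. Without that cow r was -0.42 for PRSS2, -0.68 for PDP1 and -0.45 for MTG1.

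PRSS2 belongs to a list of 11 exocrine pancreas markers, of which 6 had a probe. The summed intensity of these 6, relative to the 75th percentile, reached 8.82 to 12.4 in the highest RB array of each compartment, against at most 0.37 on any non-RB array. PRSS2 in RB replicate 3 made up nearly all of each of these high sums. The lowest RB sum of each compartment, from 0.16 to 0.31, lay inside the non-RB range there. For the other markers r with CPXM2 was 0.26 for CLPS, 0.20 for CELA3B, 0.19 for CEL, -0.14 for CELA1 and -0.41 for CELA2A, and CELA2A was well above background on 2 arrays and CEL on 11 of 32. CPA1, itself an enzyme of the pancreas, had an r of 0.04 with CPXM2, and in RB replicate 3 it lay between -3.72 and -3.23. The part of these markers in the CPXM2 difference was not tested.

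The other marker lists varied less with CPXM2. The r of their mean log2 level with CPXM2 was 0.56 for mast cells (2 of 8 genes with a probe, TPSB2 and HDC), 0.38 for epithelium (5 of 8), 0.29 for leukocytes (6 of 9), 0.27 for red blood cells (3 of 3), 0.09 for smooth muscle (5 of 8), -0.08 for stroma (6 of 8) and -0.12 for endothelium (5 of 6). The summed epithelial level was 19.4 to 25.1 in non-RB and 11.1 to 18.2 in RB cows in CAR ipsilateral, with no overlap. In ICAR ipsilateral it was 15.1 to 34.3 against 19.9 to 31.7, so the groups overlapped. The groups also overlapped in CAR and in ICAR of the contralateral horn. The epithelial sum adds intensities and so leans on EPCAM, whose median level of 3.62 was the highest of its probes, before KRT19 at 1.71. The share of each probe in that sum was not determined. How often a marker list separates the groups by chance was not tested. The part of the epithelium in the CPXM2 difference was not tested in any compartment. The summed mast cell level was 0.57 to 1.50 in non-RB and 0.27 to 1.44 in RB cows in CAR ipsilateral.

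The pathways in which these enzymes act were described by lists. None of the lists had a probe with an adjusted p under 0.05 in any comparison, except for ANPEP and LXN between CAR and ICAR once the cow was a block. Of the prohormone processing genes, which supply or share the substrates of CPE, 11 probes were tested in CAR ipsilateral. At an unadjusted p under 0.05, NTS (neurotensin) was 1.82 higher in RB cows, and CHGA (chromogranin A, -2.39) and GRP (gastrin-releasing peptide, -1.49) were lower, all with adjusted p = 1. These were 3 of 11 probes, where 3.41% of all probes passed at that level. The paper had already reported all 3 genes as differing between RB and non-RB cows on these arrays. Their number is therefore no result about the list. The list's median in CAR ipsilateral was -0.11, against 0.02 for all probes. In the other 3 compartments 0 passed at that level, and over cow means NTS (1.39) and CHGA (-1.82) did, where 2.21% of all probes did (both adjusted p = 1).

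Of 18 kinin and anaphylatoxin genes, whose peptides CPB2 and related enzymes inactivate, 14 had a probe. In a comparison 10 or 11 probes were tested, and C5 was not among them. The paper reported C5 as higher in RB cows on these arrays, in ICAR ipsilateral and in the whole uterus. At an unadjusted p under 0.05, PLAU, the urokinase plasminogen activator, was lower in RB CAR contralateral (-0.73, adjusted p = 1), and PLAT, the tissue plasminogen activator, lower in RB ICAR contralateral (-0.69, adjusted p = 1), where 1.74% and 1.6% of all probes passed at that level. Between CAR and ICAR, ANPEP, an aminopeptidase, had a difference of 0.46 (adjusted p = 0.177) and BDKRB2, a bradykinin receptor, of -0.37 (adjusted p = 0.243), positive where CAR was higher, 2 of 10 where 16.2% of all probes passed an unadjusted p of 0.05. With the cow as a block the adjusted p was 0.0483 for ANPEP and 0.0971 for BDKRB2, where 8.41% of all probes had one under 0.05. The list's median in the RB comparisons ran from -0.26 to -0.05.

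Of 15 genes that take part in trimming or extending the tail of tubulin, 6 had a probe. All 6 stayed above an unadjusted p of 0.05 between RB and non-RB cows by limma. SVBP was 0.32 higher in CAR than in ICAR (adjusted p = 0.192, or 0.0933 with the cow as a block). Of 6 measured carboxypeptidases of other name and protease inhibitors, none passed at that level between RB and non-RB cows. LXN (latexin), an inhibitor of the CPA enzymes, was 0.45 higher in CAR than in ICAR (95% interval 0.19 to 0.71, limma, adjusted p = 0.0594, or 0.0245 with the cow as a block).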

How the data were processed

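Per the labels, the scanner files came from Agilent Feature Extraction 9.5. The intensity the authors deposited for a spot was background-subtracted and detrended with a surrogate value for dim spots. A deposited log2 table held the same intensity, scaled to the 75th percentile of each array, plus a constant between 0.0042 and 0.014. The methods in the paper name an unpaired test and GeneSpring, and the normalization is not given in the sources used here. Groups, compartments and replicate numbers came from the titles.

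Control spots were left out, and outlier-flagged spots were set to missing. No member spot of 288 was flagged or saturated. Levels are log2 of the deposited intensity minus the 75th percentile of the array. A probe entered a compartment's fit when 2 or more of its 8 spots were well above background and each group had 3 or more values, and a fit over all arrays when 8 or more of 32 were. RB and non-RB cows were compared with limma 3.58.1 in R 4.3.3 (lmFit, eBayes), with Benjamini-Hochberg adjustment over all probes tested. The whole uterus used the mean of the 4 arrays of each cow, CAR against ICAR and the horns were fitted on all 32 arrays with cow group and the other factor as covariates, and the interaction used differences within a cow. The fits were tested on simulated data. The precision is limited by the number of arrays.

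The members, gene lists and tests were chosen with earlier results of these data known. Described in full were CPXM2, CPA1, the closest relatives by family, and every member with an unadjusted p under 0.05 between RB and non-RB cows or an adjusted p under 0.05 for CAR against ICAR or the horns. Likeness names the 5 probes with the highest and the 3 with the lowest Pearson r, 1 probe a sequence, among those with a gene symbol. Symbols were matched through RefSeq (ARS-UCD2.0), where 2514 accessions were found. The alternatives were the filter, quantile normalization, normexp on the mean and background intensity, the deposited table, the methods' unpaired test, blocks for replicate number, cow, slide and scan session, leaving out each replicate and, added after the data were seen, leaving out slide 1 and keeping letter case.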

Additional observations from a re-analysis of the deposited data

Results flagged for a closer look

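Among 56 sets of 4 arrays (7 members in 8 groups), 2 held an array far from the other 3, where chance flags about 1 in 20. CPXM2 in non-RB ICAR contralateral had a gap of 0.83 of the range above the others for replicate 2, at 0.35 against -1.36 to -1.07. CPA1 in non-RB ICAR contralateral had a gap of 0.849 of the range below the others for replicate 1, at -5.29 against -3.56 to -3.25, and that array lay on slide 1.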

How the results depend on the processing

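Recomputed values were held to a tolerance of 1 SD between replicates for the 56 CPXM2 differences and of 1.5 times for the 145 counts of relatives, most of which were 0. All 56 differences kept their sign and moved by less than that SD, but 2 moved by more than 1.5 times: -1.63 to -0.92 in ICAR contralateral without RB replicate 3 and -1.55 to -0.97 in CAR contralateral without non-RB replicate 1. In CAR ipsilateral the number of relatives with an unadjusted p under 0.05 ranged from 0 to 1 when each replicate was left out, and the 1 was CPE without RB replicate 1. It was 1 in ICAR ipsilateral with the slide as a block (PRCP, -1.05, adjusted p = 0.315) and 1 in ICAR contralateral with the scan session as a block (PRCP, -0.71, adjusted p = 1). Only slides 6 and 8 held both groups in that ICAR ipsilateral fit. The highest r of a member with CPXM2 was 0.486 after normexp, 0.548 without slide 1, and 0.255 to 0.449 when each replicate was left out. The cause was not tested.

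With the replicate number as a block, 0 relatives passed in each RB comparison. Arrays of the same number deviated together (mean r = 0.413 within RB and 0.382 within non-RB cows, above 0.1 in 22 and 21 of 24 pairs). RB and non-RB arrays of the same number and compartment had a mean r of 0.136, above 0.1 in 11 of 16 pairs. What these arrays share across groups was not tested. With the cow as a block for CAR against ICAR, PRCP had an adjusted p of 0.0726, ANPEP of 0.0483 and LXN of 0.0245. With letter case kept, 0 of 4 relatives passed in the RB comparisons. With 4 cows a group, the interval of SCPEP1 in CAR contralateral reached 1.73 on the log2 scale, so differences of that size were within its error. The share of all probes that differed between CAR and ICAR was unstable, with 174 probes at an adjusted p under 0.05 on all arrays, 0 without slide 1, 0 to 905 when each replicate was left out and 1086 with the cow as a block.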
